A study of Arabidopsis thaliana with 12 samples.

Results

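The nuclear histone genes of Arabidopsis thaliana are described here as a family of 44 genes, among 33602 gene models counted in total RNA of plants that carry a T-DNA in DYW2 or in NUWA. The 44 genes were taken by locus as those of histones H1, H2A, H2B, H3 and H4, and the rule uses no expression value. They were divided into 27 replication-dependent genes (5 of H3.1, 8 of H4, 4 of H2A and 10 of H2B), 7 replacement genes (3 of H3.3 and 4 of H2A.Z), 7 other variant genes (2 of H2A.X, 3 of H2A.W, the CENH3 gene HTR12 and the H2B gene AT1G08170) and 3 linker histone H1 genes. Genes without a symbol in the annotation are given by locus.

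There were 4 groups of 3 libraries, from plants titled dyw2 homozygous, dyw2 heterozygous, nuwa homozygous and nuwa heterozygous for a T-DNA insertion. No wild type was among them, so the heterozygous plants, which carry the insertion too, are what the homozygous plants were set against. Each library came from flower bud, rosette and stem together, at Boyes stage 5.10, from plants on soil with 16 h of light at 20 °C and 8 h of night at 18 °C. DYW2 and NUWA encode pentatricopeptide repeat proteins that act in RNA editing of organelles, and the labels do not name the alleles. The labels contradict each other for 2 libraries: the one titled dyw2 homozygous replicate 2 has nuwa in its genotype field, and the one titled nuwa homozygous replicate 3 has dyw2. Groups follow the titles, and results are also given without these libraries. The series describes 3 biological replicates, without saying whether they were separate plants, so p-values measure the spread between these libraries, which may in part be technical.

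Histones H2A, H2B, H3 and H4 form the core of the nucleosome around which DNA is wrapped, and H1 binds the linker DNA between nucleosomes. Replication-dependent histone genes are, as a kind, transcribed mainly in S phase and supply new nucleosomes behind the replication fork. Transcripts of this kind therefore mark dividing tissue such as meristems and young flowers. The genes called replication-dependent here were put in the class by histone family, without cell cycle data for each gene. Replacement variants are made throughout the cell cycle and enter chromatin independently of replication: H3.3 at transcribed genes, and H2A.Z mainly at the first nucleosomes of genes. In plants, histone transcripts of both kinds are polyadenylated.

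The libraries held 13329334 to 24632485 counts in dyw2 homozygous plants and 37496733 to 97804029 in the other 9 libraries, and the histone genes together took 14504 to 63158 counts per library. Neither targeted gene was lower in its own homozygous plants. DYW2 had 10.3, 11 and 9.50 CPM (counts per 1e6 counts, scaled by TMM) in dyw2 homozygous plants, against 7.08, 5.57 and 6.66 in dyw2 heterozygous plants. NUWA had 0.761, 1.34 and 1.26 CPM in nuwa homozygous plants, against 0.660, 0.351 and 0.905 in nuwa heterozygous plants. In dyw2 plants NUWA was called higher, with 4.44, 3.63 and 5.01 CPM in homozygous and 1.56, 0.796 and 0.857 in heterozygous libraries. DYW2 was called higher in dyw2 and in nuwa homozygous plants. Counts over a whole gene model do not show where an insertion lies, so they are no check of the genotype. Plastid transcripts took 26.6% to 32.5% of the counts in dyw2 homozygous plants, against 57.2% to 63.5% in dyw2 heterozygous plants, and 60.3% to 66.9% in nuwa homozygous plants, against 61.8% to 65.2% in nuwa heterozygous plants. The library titled dyw2 homozygous replicate 2 had a plastid share of 31.1%, 3.63 CPM of NUWA and 48.2 CPM of the histone gene HIS1-3, and the one titled nuwa homozygous replicate 3 had 60.6%, 1.26 CPM and 0.714 CPM. In these 3 measures each lay nearer to the other libraries of its title than to those of the mutant in its genotype field. By flower marker genes, nuwa homozygous replicate 3 stood apart from replicates 1 and 2 of its group, as given below with the histone values.

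On the TMM scale, the histone family was lower nearly throughout in dyw2 homozygous plants, with the replication-dependent genes lowest. The TMM factors were 2.23, 2.06 and 2.02 in dyw2 homozygous and 0.985, 0.739 and 0.818 in dyw2 heterozygous libraries. Without them, histone genes took 14504, 27882 and 16219 of 9379319, 16272078 and 10571587 nuclear counts in homozygous libraries. In heterozygous libraries they took 43137, 43066 and 51068 of 22984326, 26452663 and 27152025. These shares overlapped between the groups, so small falls depend on the scaling. Of 42 genes with enough counts to test, 37 were lower and 1, the linker histone gene HIS1-3, was higher than in dyw2 heterozygous plants (edgeR quasi-likelihood test, called at a Benjamini-Hochberg adjusted p under 0.05 over 21213 genes). Over all 21213 genes, 32.8% were called lower and 30.1% higher. In 36 of the 42 every homozygous library lay below every heterozygous one, which held for 36.1% of all genes. The 27 replication-dependent genes had a median log2 fold change of -1.37, with 26 called lower, and the 6 tested replacement genes had a median of -0.47, with 4 called lower. The median over all genes tested was -0.05. In bulk tissue, fewer cells of a type and less RNA per cell cannot be told apart. Without both libraries of disputed label 34 histone genes were called, with medians of -1.34 and -0.48 in the replication-dependent and replacement classes. With groups taken from the genotype field, which exchanges those libraries between the mutants, 0 genes of the whole table were called (edgeR, 28 histone genes at an unadjusted p under 0.05) and the replication-dependent median was -0.88. The untested genes were HTA4, an H2A.Z gene with 16 counts over the 12 libraries, and AT1G08170, with 6.

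Summed over the class and per kilobase of gene model, the replication-dependent genes reached 237, 238 and 221 CPM per kb in dyw2 homozygous plants, against 573, 525 and 575 in dyw2 heterozygous plants. The replacement genes summed to 251, 291 and 269 CPM per kb in dyw2 homozygous plants, against 355, 370 and 371 in dyw2 heterozygous plants. Neither pair of groups overlapped on the TMM scale. The replication-dependent sum was 0.944, 0.818 and 0.821 times the replacement sum in dyw2 homozygous plants, against 1.61, 1.42 and 1.55 times in dyw2 heterozygous plants. Thus the replication-dependent transcripts were the larger pool in all 3 heterozygous libraries and the smaller pool in all 3 homozygous ones. The pools are unlike in make-up, as H4 and H2B have no genes in the replacement class, so a ratio of 1 has no meaning of its own. For histone H3 alone, H3.1 transcripts stood at 0.180, 0.115 and 0.126 times the H3.3 transcripts in dyw2 homozygous plants, against 0.280, 0.208 and 0.267 times in dyw2 heterozygous plants. In nuwa plants the same H3 ratio was 0.199, 0.189 and 0.253 in homozygous and 0.236, 0.251 and 0.235 in heterozygous libraries, which overlapped.

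**Figure D1:**
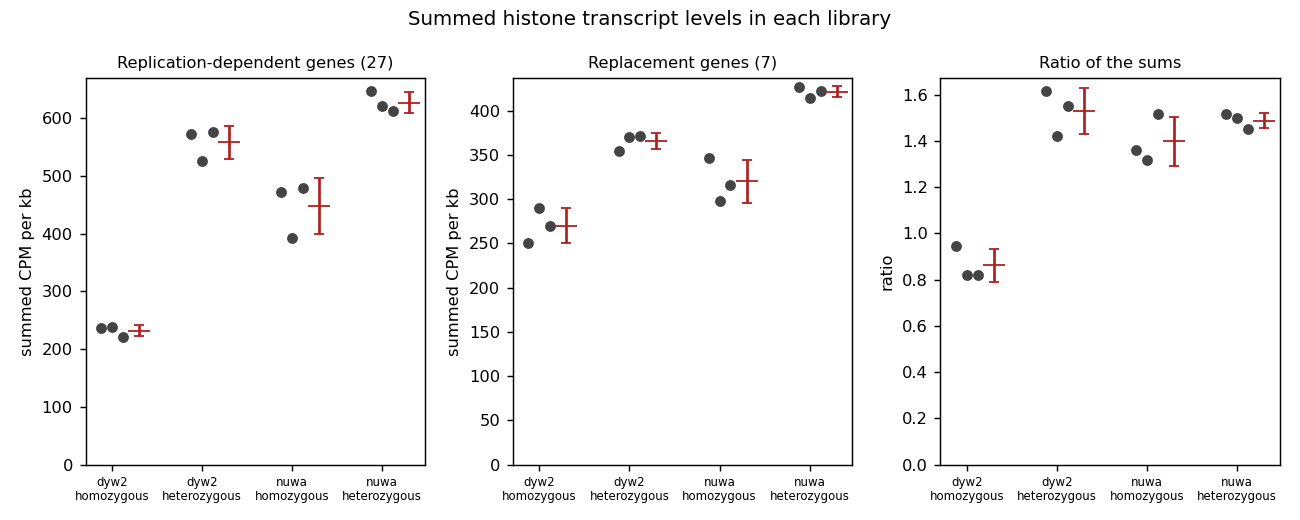
Summed transcript levels (CPM per kb of gene model, TMM-scaled) of the 27 replication-dependent and the 7 replacement histone genes, and their ratio, in each of 3 libraries per group (black points), with the mean and SD in red. The replication-dependent sums of dyw2 homozygous plants lie between 221 and 238 CPM per kb, below those of the other 9 libraries, and their ratios lie below 1.

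All 5 genes of H3.1, the H3 form deposited at replication, were lower in dyw2 homozygous plants, with log2 fold changes between -1.41 and -1.04. AT1G09200, the most abundant of them, had 9.62, 7.92 and 7.80 CPM in dyw2 homozygous plants, against 23.6, 20.1 and 23.6 CPM in dyw2 heterozygous plants. The groups were far apart, and the log2 fold change was -1.41 ± 0.15 (SE; adjusted p = 8.8e-06, edgeR). The 5 genes moved alike, AT5G10390, AT5G10400 and AT5G65360 by -1.04 ± 0.19, -1.37 ± 0.24 and -1.32 ± 0.16. AT3G27360 had 1.85, 1.40 and 1.24 CPM in dyw2 homozygous plants, against 4.35, 3.07 and 4.27 CPM in dyw2 heterozygous plants. Its gene model overlaps that of AT3G27380 by 328 bases on the same strand, so some of its counts may belong to that gene.

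All 8 genes of H4, the partner of H3 in the nucleosome core, were called lower in dyw2 homozygous plants, with a median log2 fold change of -1.60. AT5G59970, the most abundant of them per length at 16.8 CPM per kb over the 12 libraries, had 3.40, 3.14 and 2.64 CPM in dyw2 homozygous plants, against 13.3, 9.02 and 12.8 in dyw2 heterozygous plants. AT5G59690 had 3.50, 3.08 and 3.76 CPM in dyw2 homozygous plants, against 12.8, 11.8 and 11.1 in dyw2 heterozygous plants. AT3G46320, at a lower level, had 0.639, 0.652 and 0.607 CPM in dyw2 homozygous plants, against 2.74, 1.98 and 2.51 in dyw2 heterozygous plants. In each of these genes every homozygous library lay below every heterozygous one, by about the same factor: the log2 fold changes were -1.93 ± 0.22, -1.79 ± 0.13 and -1.92 ± 0.20 (SE). The smallest change among H4 genes, -0.49 ± 0.19 in AT1G07660, was called at an adjusted p of 0.046 (edgeR), its groups overlapped, and the call was lost in 9 of the 12 fits that left out a library, all but those without dyw2 homozygous replicate 1, nuwa homozygous replicate 1 or nuwa homozygous replicate 3. The other H4 genes, HIS4, AT3G45930, AT3G53730 and AT1G07820, had log2 fold changes of -1.62, -1.57, -1.47 and -0.96. H4 genes have nearly the same coding sequence, and 6 of them share 50-base stretches with other loci. Such stretches were 30.8% of the exonic windows of AT1G07660, 27.9% of AT3G46320, 25.7% of AT3G45930, 19.4% of AT1G07820, 8.48% of AT5G59690 and 6.94% of AT5G59970. Reads that matched equally well elsewhere had been removed before counting, so the levels of these genes are uncertain.

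The 4 genes of canonical H2A were all lower in dyw2 homozygous plants, with a median log2 fold change of -1.23. HTA10, the most abundant, had 9.99, 9.76 and 9.77 CPM in dyw2 homozygous plants, against 22.6, 23.6 and 25.9 in dyw2 heterozygous plants. HTA2 was lowered the most, to 2.76, 2.41 and 2.79 CPM in dyw2 homozygous plants, against 11.1, 10.9 and 12.1 CPM in dyw2 heterozygous plants (log2 fold change -2.10 ± 0.13 SE, adjusted p = 3.5e-07, edgeR). The libraries of a group differed little for either gene. RAT5, known for its part in T-DNA integration by Agrobacterium, had a log2 fold change of -1.05 ± 0.13, and HTA13 one of -1.17 ± 0.20.

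The 10 genes of H2B spread from -2.87 to -0.75 on the log2 scale, and 9 were called lower in dyw2 homozygous plants. AT3G53650 had 0.303, 0.454 and 0.243 CPM in dyw2 homozygous plants, which rest on 9, 23 and 8 counts, against 2.64, 2.70 and 2.23 CPM in dyw2 heterozygous plants. This was a 7.33-fold lower level (adjusted p = 2.5e-06, edgeR), the largest fall of any histone gene in dyw2 plants. AT2G37470, with more counts, had 3.77, 3.44 and 3.46 CPM in dyw2 homozygous plants, against 15.9, 15.9 and 15.7 in dyw2 heterozygous plants. It was 4.46-fold lower, and its libraries hardly differed within a group. HTB4, the most abundant H2B gene, had 46.7, 48.4 and 42.5 CPM in dyw2 homozygous plants, against 79.3, 76.5 and 76.4 in dyw2 heterozygous plants. Its log2 fold change was -0.75 ± 0.11. The other called H2B genes, HTB1, HTB2, HTB9, HTB11, AT2G28720 and AT3G09480, lay between -1.55 and -0.76. The call of AT3G09480, which had under 1 CPM in every library, was lost in 8 of the 12 fits that left out a library, the exceptions being dyw2 heterozygous replicate 2, dyw2 homozygous replicate 1 and nuwa homozygous replicates 1 and 3. AT5G02570 was not called, with 0.303, 0.395 and 0.303 CPM in dyw2 homozygous plants, against 0.956, 0.278 and 0.478 in dyw2 heterozygous plants, which overlapped. It lies over 522 bases of HTA12 on the opposite strand, and the sources used here do not state if reads were counted by strand.

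**Figure D2:**
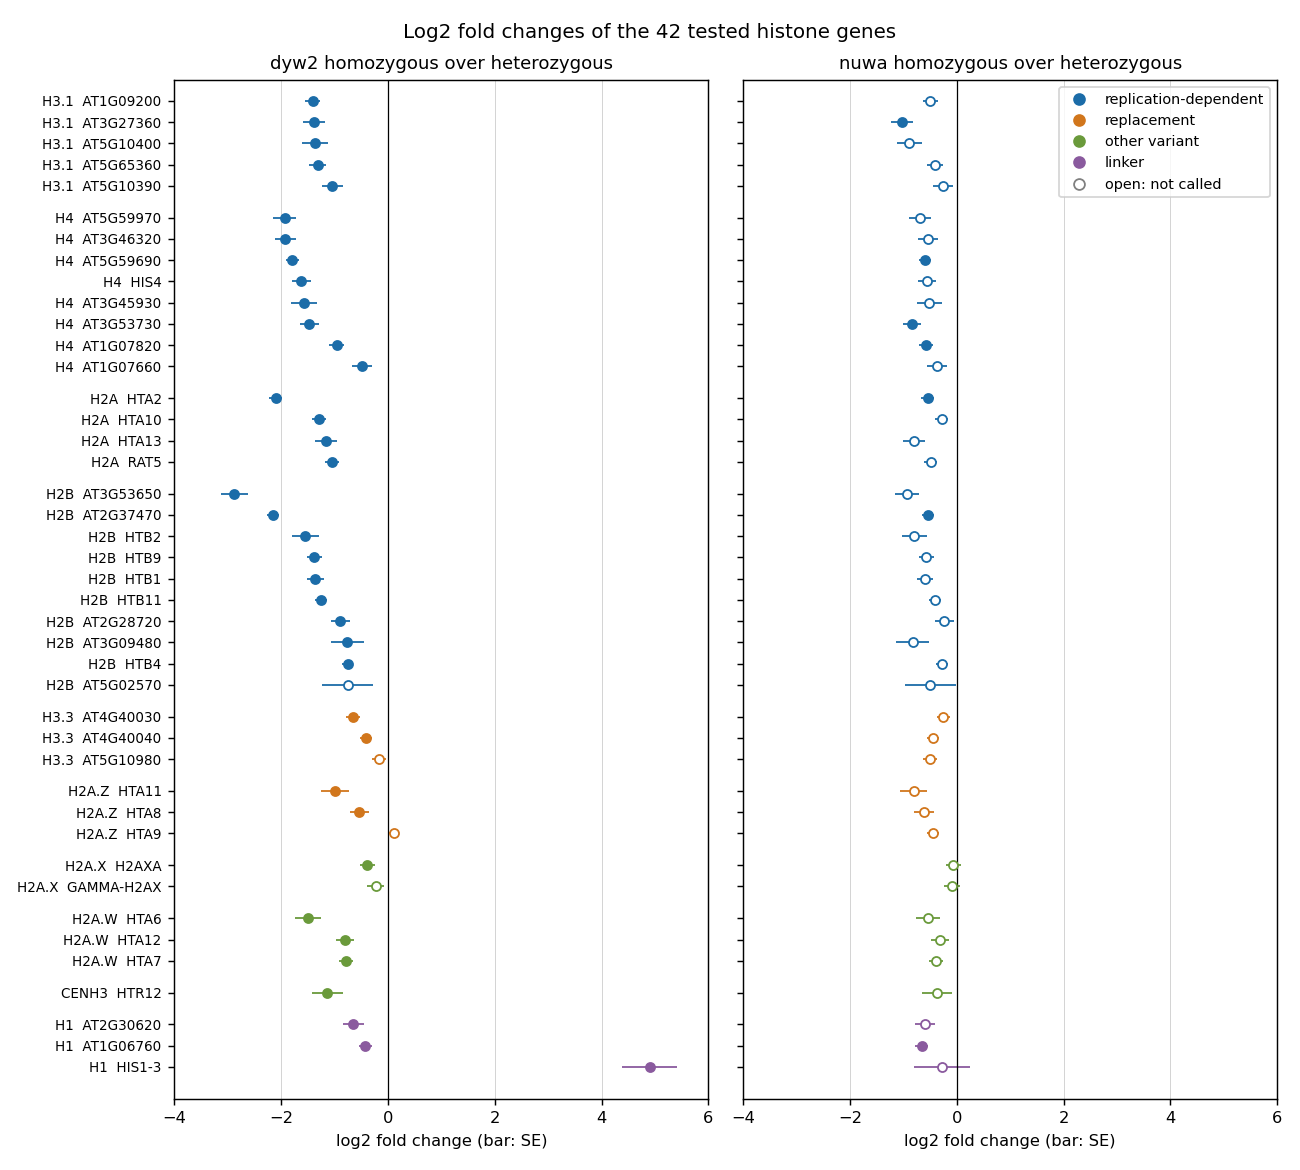
Log2 fold change (points) with its SE (bars) of the 42 tested histone genes, homozygous over heterozygous plants, for dyw2 on the left and nuwa on the right, by histone family and coloured by class, with filled points for genes called at an adjusted p under 0.05. In dyw2 the replication-dependent genes lie between -2.87 and -0.49, most of them left of the replacement genes, and HIS1-3 lies alone at 4.90. In nuwa all 42 lie below 0, and 7 are filled.

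Since the replication-dependent genes moved together, the 250 bases before each gene start were read from the TAIR10.1 genome for motifs known from plant histone promoters. The octamer CGCGGATC was found, on either strand, in 7 of the 27 replication-dependent genes and in 10 of all 44, against 0.135% of 27443 promoters of protein-coding genes. The other carriers were the H3.3 gene AT4G40040, the H2A.W gene HTA6 and the H1 gene AT1G06760. The hexamer ACGTCA was found in 11 histone genes, of which 8 were H2B genes, against 7.69% of all promoters. The E2F motifs TTTCCCGC and TTTGGCGC were found in 0 and 2 histone genes, against 0.619% and 0.361% of all promoters. The sets with the octamer and the hexamer overlap in 1 gene, AT5G10400. Among the genes that held none of the 4 motifs were HTA2, AT5G59970, HIS4 and AT3G53730, which fell in dyw2 homozygous plants. The promoters that follow, with matches in capitals, are those of an H3.1 gene with 2 octamers, an H4 gene with 1 octamer, an H2B gene with the hexamer, an H4 gene with an E2F motif, and HIS1-3, which rose and holds none of the 4 motifs.
AT1G09200 (H3.1, chr1:2972335-2972584, minus strand): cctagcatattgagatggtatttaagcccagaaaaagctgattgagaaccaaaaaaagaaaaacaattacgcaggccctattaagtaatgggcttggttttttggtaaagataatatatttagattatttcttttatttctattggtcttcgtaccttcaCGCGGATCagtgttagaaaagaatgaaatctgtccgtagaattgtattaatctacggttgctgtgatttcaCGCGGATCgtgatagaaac
AT5G59690 (H4, chr5:24051224-24051473, plus strand): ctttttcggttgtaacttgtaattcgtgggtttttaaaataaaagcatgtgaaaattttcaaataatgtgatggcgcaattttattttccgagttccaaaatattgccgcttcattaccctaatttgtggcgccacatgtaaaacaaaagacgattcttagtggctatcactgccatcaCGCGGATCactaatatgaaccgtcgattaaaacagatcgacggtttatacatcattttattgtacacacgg
AT2G37470 (H2B, chr2:15736477-15736726, plus strand): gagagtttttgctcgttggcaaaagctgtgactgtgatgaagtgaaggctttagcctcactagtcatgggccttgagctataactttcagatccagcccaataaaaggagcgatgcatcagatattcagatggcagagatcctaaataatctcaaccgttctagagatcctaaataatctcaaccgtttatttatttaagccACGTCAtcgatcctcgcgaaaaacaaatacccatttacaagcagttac
AT3G46320 (H4, chr3:17020429-17020678, minus strand): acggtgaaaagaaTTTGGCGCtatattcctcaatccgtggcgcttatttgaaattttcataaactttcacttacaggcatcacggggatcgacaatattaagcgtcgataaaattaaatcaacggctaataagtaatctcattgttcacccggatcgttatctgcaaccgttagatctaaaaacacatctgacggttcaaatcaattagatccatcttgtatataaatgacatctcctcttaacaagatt
HIS1-3 (H1, chr2:7845673-7845922, plus strand): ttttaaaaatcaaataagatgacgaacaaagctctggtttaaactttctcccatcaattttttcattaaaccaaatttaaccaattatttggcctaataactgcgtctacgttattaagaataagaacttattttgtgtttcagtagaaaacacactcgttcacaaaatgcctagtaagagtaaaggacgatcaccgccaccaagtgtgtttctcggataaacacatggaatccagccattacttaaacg

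Within the replication-dependent class, the medians of genes with and without a motif lay close together. In dyw2 plants the median log2 fold change was -1.32 for the 7 genes with the octamer and -1.38 for the 20 without it, and -1.37 for the 10 with the hexamer and -1.32 for the 17 without it. The 2 octamers of AT1G09200 begin 90 and 19 bases before the gene start, and that of AT5G59690 begins 71 bases before it. Gene structure also set the classes apart: 20 of the 27 replication-dependent genes have a single exon, and 0 of the 7 replacement genes do. The replication-dependent genes with a single exon had a median of -1.38, and the 7 with introns a median of -1.17.

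Of the 3 H3.3 genes, 2 were called lower in dyw2 homozygous plants, by less than the H3.1 genes. AT4G40040 and AT4G40030, neighbours on chromosome 4, were the most abundant histone genes per length, at 145 and 118 CPM per kb over the 12 libraries. AT4G40040 had 93.3, 105 and 100 CPM in dyw2 homozygous plants, against 127, 138 and 133 in dyw2 heterozygous plants (log2 fold change -0.41 ± 0.11 SE, adjusted p = 0.0055, edgeR). AT4G40030 had 55.8, 70.6 and 59.8 CPM in dyw2 homozygous plants, against 95.4, 97.6 and 101 in dyw2 heterozygous plants (-0.66 ± 0.13). On the TMM scale, neither overlapped between groups. As shares of the nuclear counts, both overlapped. AT4G40040 had 2774, 5336 and 3304 counts in dyw2 homozygous and 6791, 7432 and 8039 in dyw2 heterozygous libraries. On average its share was no lower in the homozygous ones, so the direction of its change depends on the scaling. AT5G10980 had 26.6, 30.0 and 26.9 CPM in dyw2 homozygous plants, against 27.1, 34.3 and 32.9 in dyw2 heterozygous plants, and was not called.

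The 3 tested H2A.Z genes went separate ways. HTA11 had 3.60, 5.06 and 3.22 CPM in dyw2 homozygous plants, against 9.93, 5.24 and 8.59 in dyw2 heterozygous plants, a fall of 0.99 ± 0.25 on the log2 scale. HTA8 had 1.88, 1.82 and 1.88 CPM in dyw2 homozygous plants, against 3.20, 2.26 and 2.62 in dyw2 heterozygous plants (-0.53 ± 0.18), and its call was lost when either replicate 1 of the dyw2 heterozygous plants or replicate 2 of the homozygous ones was left out (adjusted p 0.085 and 0.059, edgeR). HTA9, the most abundant of them, had 20.0, 19.6 and 24.1 CPM in dyw2 homozygous plants, against 21.0, 19.4 and 18.8 in dyw2 heterozygous plants. Its log2 fold change of 0.11 ± 0.11 was the only one above 0 among the core histone genes in dyw2, and it was not called (adjusted p = 0.42, edgeR).

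Among the other variants, 5 of 6 tested genes were called lower in dyw2 homozygous plants. The H2A.W genes, whose product marks heterochromatin, were all lower. HTA7, the most abundant, had 8.38, 10.9 and 8.65 CPM in dyw2 homozygous plants, against 17.8, 14 and 16.3 in dyw2 heterozygous plants. HTA6 had 1.75, 0.948 and 1.73 CPM in dyw2 homozygous plants, against 4.68, 3.15 and 4.53 in dyw2 heterozygous plants (-1.50 ± 0.24). HTA12 had 3.60, 3.58 and 3.49 CPM in dyw2 homozygous plants, against 4.82, 7.20 and 6.63 in dyw2 heterozygous plants (-0.81 ± 0.17), with the antisense overlap named above. HTR12, which encodes the centromeric histone CENH3, had 0.505, 0.553 and 0.425 CPM in dyw2 homozygous plants, against 1.31, 0.926 and 1.04 in dyw2 heterozygous plants. Its groups did not overlap, and it fell by 1.13 ± 0.30 on the log2 scale. The H2A.X genes, whose product is phosphorylated at DNA breaks, changed the least of these. H2AXA had 19.6, 20.3 and 18.4 CPM in dyw2 homozygous plants, against 22.7, 25.2 and 28.2 in dyw2 heterozygous plants (-0.38 ± 0.14, adjusted p = 0.029, edgeR). The H2AXA call was lost without dyw2 heterozygous replicate 2 or 3 or dyw2 homozygous replicate 1 or 3 (adjusted p 0.059 to 0.11, edgeR). GAMMA-H2AX was not called, at -0.23 ± 0.15.

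The 3 linker histone genes did not move together in dyw2 homozygous plants: 1 was called higher and 2 lower. HIS1-3, the H1 variant known to be induced by drought, had 28.9, 48.2 and 22.5 CPM in dyw2 homozygous plants, against 1.89, 0.685 and 0.775 in dyw2 heterozygous plants. The groups were far apart, and the fold change was 29.8 (adjusted p = 9.6e-06, edgeR). The main H1 gene AT1G06760 had 33.1, 42.8 and 39.2 CPM in dyw2 homozygous plants, against 49.1, 53.4 and 52.0 in dyw2 heterozygous plants (-0.42 ± 0.12). Its call was lost without dyw2 homozygous replicate 1, at -0.33, and its model overlaps a noncoding gene on the opposite strand by 484 bases. AT2G30620 had 15.6, 15.2 and 19.8 CPM in dyw2 homozygous plants, against 21.3, 26.8 and 30.9 in dyw2 heterozygous plants (-0.65 ± 0.19). Summed per length, the 3 H1 genes held 78.8, 113 and 78.7 CPM per kb in dyw2 homozygous plants, against 61.8, 67.8 and 69.4 in dyw2 heterozygous plants, so the H1 sum was higher while the sums of all other tested families were lower on average.

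**Figure D3:**
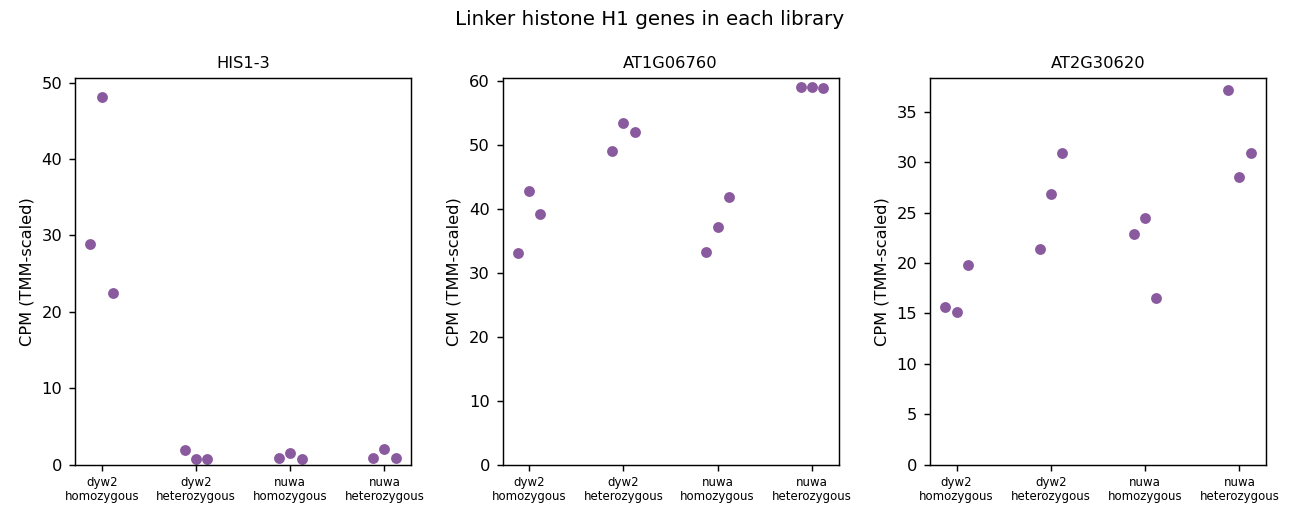
Levels (CPM, TMM-scaled) of the 3 linker histone H1 genes, with 1 point per library and 3 libraries per group. HIS1-3 lies between 22.5 and 48.2 CPM in dyw2 homozygous plants and at 2 CPM or less in the other 9 libraries.

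In nuwa homozygous plants the histone genes were lower too, by less. All 42 tested genes had a negative log2 fold change against nuwa heterozygous plants, with a median of -0.53, where the median over all genes was -0.02. Of them 7 were called lower and 0 higher, against 0.636% called lower and 1.54% higher over all genes tested. In 34 of the 42 genes every homozygous library lay below every heterozygous one, which held for 12.7% of all genes. The replication-dependent genes had a median of -0.55 (6 called) and the replacement genes one of -0.48 (0 called), so that the class medians lay closer together than in dyw2 plants. Summed per length, the replication-dependent genes held 471, 393 and 479 CPM per kb in nuwa homozygous plants, against 648, 622 and 612 in nuwa heterozygous plants. The replacement genes held 347, 298 and 316 CPM per kb in nuwa homozygous plants, against 427, 415 and 422 in nuwa heterozygous plants. Both sums were lower in every homozygous library, while their ratio, 1.36, 1.32 and 1.52 in homozygous and 1.52, 1.5 and 1.45 in heterozygous plants, overlapped between the groups.

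The called genes were AT3G27360, the H4 genes AT3G53730, AT5G59690 and AT1G07820, HTA2, AT2G37470 and the H1 gene AT1G06760. AT3G27360 had 2.02, 2.15 and 2.50 CPM in nuwa homozygous plants, against 4.97, 3.64 and 5.07 in nuwa heterozygous plants, a fall of 1.03 ± 0.21 on the log2 scale (adjusted p = 0.030, edgeR). AT3G53730 had 4.54, 3.86 and 5.38 CPM in nuwa homozygous plants, against 9.40, 7.83 and 7.45 in nuwa heterozygous plants (-0.84 ± 0.17). AT5G59690 had 9.87, 8.32 and 9.20 CPM in nuwa homozygous plants, against 15.2, 13.6 and 12.6 in nuwa heterozygous plants (-0.60 ± 0.12). These genes did not overlap between the groups. HTA2 had 9.71, 8.45 and 8.02 CPM in nuwa homozygous plants, against 14.2, 12.4 and 11.6 in nuwa heterozygous plants (-0.55 ± 0.12). AT2G37470 had 14.1, 11.5 and 12.7 CPM in nuwa homozygous plants, against 18.0, 20.2 and 17.5 in nuwa heterozygous plants (-0.54 ± 0.11). Neither fell as far as in dyw2 homozygous plants, where both were more than 4-fold lower. AT1G06760 had 33.3, 37.2 and 41.9 CPM in nuwa homozygous plants, against 59.1, 59.1 and 58.9 in nuwa heterozygous plants (-0.66 ± 0.13). AT4G40040 had 118, 113 and 107 CPM in nuwa homozygous plants, against 157, 152 and 151 in nuwa heterozygous plants, and just missed the threshold (adjusted p = 0.055, edgeR). HIS1-3 had 0.833, 1.58 and 0.714 CPM in nuwa homozygous plants, against 0.814, 2 and 0.801 in nuwa heterozygous plants, with no rise.

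The remaining genes with values by library above were not called in nuwa plants. AT1G09200 of H3.1 had 18.2, 14.3 and 20.2 CPM in nuwa homozygous plants, against 24.3, 26.0 and 24.1 in nuwa heterozygous plants. AT5G59970 of H4 had 8.59, 6.20 and 11 CPM in nuwa homozygous plants, against 15.4, 12.8 and 13.4 in nuwa heterozygous plants. Both were lower in every homozygous library, at -0.50 ± 0.14 and -0.68 ± 0.21 (adjusted p = 0.092 and 0.11, edgeR). AT3G53650 of H2B had 1.31, 1.21 and 1.07 CPM in nuwa homozygous plants, against 2.40, 2.53 and 1.92 in nuwa heterozygous plants (-0.93 ± 0.22, adjusted p = 0.055, edgeR). HTB4 had 73.2, 63.1 and 72.5 CPM in nuwa homozygous plants, against 86.8, 84.5 and 82.1 in nuwa heterozygous plants, and HTA6 had 3.38, 2.82 and 3.54 CPM against 5.39, 4.49 and 4.30. All of these again lay lower without overlap. Among replacement genes, HTA11 had 5.02, 4.23 and 6.71 CPM in nuwa homozygous plants, against 10.1, 8.23 and 9.77 in nuwa heterozygous plants, and AT5G10980 had 30.2, 23.3 and 24.9 CPM against 35.9, 38.3 and 36.6. The H2A.X gene H2AXA had 29.5, 23.1 and 27.7 CPM in nuwa homozygous plants, against 25.6, 32.4 and 26.1 in nuwa heterozygous plants. H2AXA overlapped between the groups, while HTA11 and AT5G10980 did not.

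The nuwa calls depended on single libraries. The number of histone genes called was 3 without dyw2 homozygous replicate 1 or 3, and 1 without nuwa heterozygous replicate 2. It was 0 without nuwa heterozygous replicate 1 or 3 or nuwa homozygous replicate 2, where 29, 30 and 25 genes had an unadjusted p under 0.05 by edgeR. It was 14 without nuwa homozygous replicate 3, a library of disputed label. Among the 7 genes, AT3G27360 lost its call in 4 of the 12 fits that left out a library and HTA2 in 11. With DESeq2 in place of edgeR 19 histone genes were called, among them all 7.

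The effects of the mutants differed for 20 histone genes, 18 of them lower and 2 higher in the dyw2 than in the nuwa contrast (edgeR, contrast of the effects), where 40.9% of all genes were called (21.7% lower and 19.2% higher). Of the 18, 17 were replication-dependent and 1 was HTA6. The largest differences were -1.94 ± 0.33 in AT3G53650, -1.62 ± 0.15 in AT2G37470 and -1.56 ± 0.17 in HTA2. HTB4, with -0.48 ± 0.15, was the smallest called. The genes that were higher were HIS1-3, at 5.17 ± 0.71, and HTA9, at 0.56 ± 0.16. HTA9 had 19.3, 17.4 and 18.3 CPM in nuwa homozygous plants, against 24.4, 26.2 and 24.6 in nuwa heterozygous plants. As a class, the replication-dependent genes had a median difference of -0.78, and the replacement genes one of 0.06. The call of HTA6 was lost without each of dyw2 heterozygous replicates 1 and 3, dyw2 homozygous replicate 2, nuwa heterozygous replicates 2 and 3 and nuwa homozygous replicates 1 and 3 (adjusted p 0.059 to 0.081, edgeR). That of HTB4 was lost without dyw2 homozygous replicate 3, nuwa heterozygous replicate 3 or nuwa homozygous replicate 1 (adjusted p 0.052 to 0.062, edgeR). The calls of AT5G10390, RAT5 and AT3G45930 were lost in 8, 5 and 4 of the 12 fits. The other 15 were called in every one of them. Without both libraries of disputed label 16 genes were called.

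No histone gene was called between the heterozygous groups. Of the 42, 0 were called between dyw2 and nuwa heterozygous plants (edgeR, 2 at an unadjusted p under 0.05; DESeq2 also 0), where 0.132% of all genes were. Those 2 genes were HTA9, at -0.35 ± 0.11, and AT2G28720, at -0.47 ± 0.18. Still, 40 of the 42 had a negative log2 fold change, with a median of -0.20. Over all genes, 11040 of 21213 were negative, with a median of -0.01. The count was 34 of the 42 without dyw2 heterozygous replicate 2, and 34 with the offset for length described further on. The replication-dependent sum was 573, 525 and 575 CPM per kb in dyw2 heterozygous plants, against 648, 622 and 612 in nuwa heterozygous plants, which did not overlap. The replacement sum, 355, 370 and 371 CPM per kb in dyw2 heterozygous plants against 427, 415 and 422 in nuwa heterozygous plants, and the linker sum, 61.8, 67.8 and 69.4 against 80.2, 75.9 and 75.8, did not overlap either.

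Of 27 listed genes of DNA replication, 9 were called lower and 5 higher in dyw2 homozygous plants, or 33.3% and 18.5%, against 32.8% and 30.1% of all genes. Their median log2 fold change was -0.25. With the floral mean described further on as a covariate, 3 were lower and 6 higher, with a median of 0.04. CDC6A, which loads the MCM helicase at origins, had 0.606, 0.652 and 0.546 CPM in dyw2 homozygous plants, against 2.49, 4.11 and 3.56 in dyw2 heterozygous plants (-2.48 ± 0.23). CDT1A, its partner in origin licensing, had 4.37, 4.07 and 4.04 CPM in dyw2 homozygous plants, against 8.62, 6.20 and 7.86 in dyw2 heterozygous plants (-0.86 ± 0.17). TK1A, a thymidine kinase, had 4.07, 3.85 and 3.79 CPM in dyw2 homozygous plants, against 6.30, 7.22 and 6.88 in dyw2 heterozygous plants (-0.80 ± 0.16). These 3 were lower without overlap. POLD1, the catalytic subunit of DNA polymerase delta, had 9.55, 8.12 and 7.59 CPM in dyw2 homozygous plants, against 3.86, 2.65 and 2.51 in dyw2 heterozygous plants (1.49 ± 0.28). RFC1, a clamp loader subunit, had 9.02, 6.30 and 8.35 CPM in dyw2 homozygous plants, against 3.65, 2.52 and 2.84 in dyw2 heterozygous plants (1.39 ± 0.22). LIG1, a DNA ligase, had 16.9, 14.4 and 13.4 CPM in dyw2 homozygous plants, against 8.82, 4.44 and 4.14 in dyw2 heterozygous plants (1.36 ± 0.33). All 3 were higher without overlap.

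Of 23 genes of histone chaperones and remodellers, 14 were called higher and 3 lower in dyw2 homozygous plants, or 60.9% and 13.0%, against 30.1% and 32.8% of all genes, with a median of 0.55. SPT16, a subunit of the FACT chaperone of H2A and H2B, had 38.7, 32.0 and 34.7 CPM in dyw2 homozygous plants, against 18.3, 11.7 and 10.1 in dyw2 heterozygous plants. INO80, a remodeller that acts on H2A.Z nucleosomes, had 42.9, 37.4 and 38.5 CPM in dyw2 homozygous plants, against 20.8, 15.3 and 13.0 in dyw2 heterozygous plants (1.27 ± 0.23). UBN1, a subunit of the HIRA complex for H3.3, had 9.55, 8.34 and 9.83 CPM in dyw2 homozygous plants, against 4.27, 3.94 and 3.48 in dyw2 heterozygous plants (1.24 ± 0.22). Like SPT16, which was higher, the lower ones were chaperones of core histones. FAS1, a subunit of the CAF-1 complex that deposits H3.1 at replication, had 3.94, 2.90 and 2.73 CPM in dyw2 homozygous plants, against 6.61, 5.24 and 5.16 in dyw2 heterozygous plants (-0.83 ± 0.21). ASF1A, an H3 and H4 chaperone, had 6.32, 6.76 and 6.01 CPM in dyw2 homozygous plants, against 7.64, 8.57 and 9.50 in dyw2 heterozygous plants (-0.43 ± 0.13). NAP1;3, an H2A and H2B chaperone, had 18.7, 16.6 and 17.1 CPM in dyw2 homozygous plants, against 21.6, 20.5 and 24.4 in dyw2 heterozygous plants (-0.34 ± 0.14). No library of one group crossed into the other in these 6 genes.

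Of 12 regulators of the G1 to S transition, 3 were called higher and 3 lower in dyw2 homozygous plants, or 25.0% each way, below the shares of all genes. RBR1, the retinoblastoma homologue, had 21.8, 17.7 and 19.6 CPM in dyw2 homozygous plants, against 15, 10.1 and 9.27 in dyw2 heterozygous plants (0.78 ± 0.21). E2FC had 4.17, 4.33 and 3.34 CPM in dyw2 homozygous plants, against 2.42, 2.20 and 2.47 in dyw2 heterozygous plants (0.74 ± 0.19). DPB had 5.58, 6.62 and 7.22 CPM in dyw2 homozygous plants, against 4.63, 4.05 and 3.61 in dyw2 heterozygous plants (0.66 ± 0.17). E2F and DP proteins bind DNA as pairs. The S-phase cyclin gene CYCA3;2 had 4.71, 3.28 and 3.1 CPM in dyw2 homozygous plants, against 5.15, 5.74 and 6.30 in dyw2 heterozygous plants (-0.64 ± 0.19). DPA had 4.88, 5.0 and 4.86 CPM in dyw2 homozygous plants, against 5.81, 6.17 and 7.22 in dyw2 heterozygous plants (-0.38 ± 0.13). With the floral covariate 5 of the 12 were higher and 3 lower. In nuwa plants 0 genes of the 3 lists were called by edgeR, where 2, 3 and 3 replication, chaperone and G1 to S genes had an unadjusted p under 0.05, and DESeq2 called 1, 3 and 2.

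Gene length moved with the changes in both mutants, and further in dyw2 plants. Over all nuclear genes tested, the dyw2 median log2 fold change was -0.41 for gene models of 600 to 800 bases and 1.13 for those over 5000 bases. In the shorter bin 43.2% of genes were called lower in dyw2 plants, and in the longer 4.33%. In nuwa plants the medians of these bins were -0.12 and 0.31. The histone genes have models of 399 to 1495 bases, with medians of 666 bases in the replication-dependent and 759 in the replacement class, while the chaperone list has a median of 1814 and the replication list one of 2462. With an offset for length, 31 histone genes were called lower and 2 higher in dyw2 homozygous plants, where the main fit called 37 and 1. The replication-dependent genes then had a median of -0.99 with 24 of 27 called lower, and the replacement genes one of -0.18 with 2 called lower and 1 higher. The calls of AT4G40040, HTA8, H2AXA, AT1G06760, AT1G07660 and AT3G09480 ended, and HTA9 was called higher at 0.36 (adjusted p = 0.019, edgeR). In the chaperone list 12 genes were then higher and 1 lower. In nuwa plants 4 histone genes were called with the offset, and 40 of 42 had a negative log2 fold change. The replication-dependent median was then -0.40.

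**Figure D4:**
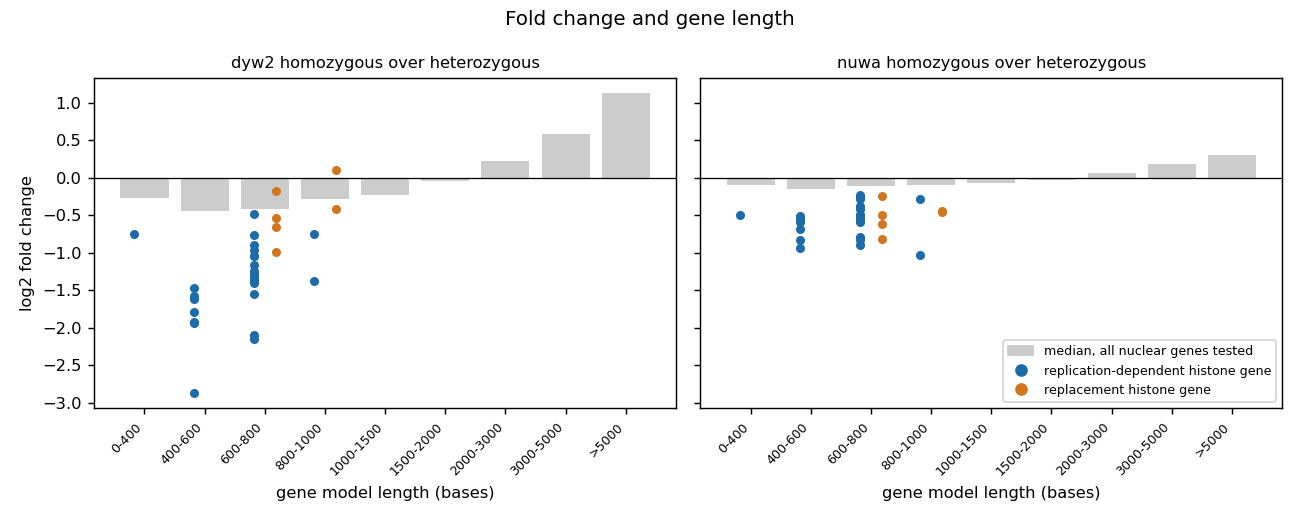
Log2 fold change against gene model length (bins in bases), homozygous over heterozygous plants, with grey bars for the median of all nuclear genes tested in a bin and points for the replication-dependent and replacement histone genes. In dyw2 the median falls below 0 for genes of up to 2000 bases and reaches 1.13 above 5000 bases, and all 27 replication-dependent genes, but 4 of 6 replacement genes, lie below the median of their bin. In nuwa the median goes from -0.12 at 600 to 800 bases to 0.31 above 5000 bases. All 27 replication-dependent and all 6 replacement genes lie below the nuwa median of their bin.

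Flower marker genes differed between the groups as well. The mean log2 CPM of 7 floral organ identity genes was -0.91, -0.15 and 0.19 in dyw2 homozygous plants, against 3.83, 2.44 and 3.60 in dyw2 heterozygous plants. It was -1.52, -1.92 and 2.95 in nuwa homozygous plants, against 3.85, 3.17 and 3.82 in nuwa heterozygous plants. Late pollen genes summed to 0.0324 CPM per kb or less in dyw2 homozygous plants, against 2.99 to 22.4 in dyw2 heterozygous plants. The nuwa homozygous replicates 1 and 2 had floral means below those of the dyw2 homozygous libraries. Summed as CPM per kb, the floral organ identity genes overlapped between them, at 6.15 and 2.65 against 4.52, 6.95 and 8.62. The replication-dependent histone sums of nuwa homozygous replicates 1 and 2 were 471 and 393 CPM per kb. The dyw2 homozygous libraries held 237, 238 and 221. Replicate 3 of nuwa homozygous plants, with a floral mean of 2.95, had a sum of 479. With the floral mean as a covariate, 31 histone genes were called in dyw2 plants, and the calls of HTR12, HTA11, HTA8, H2AXA, AT1G06760, AT1G07660 and AT3G09480 ended. The replication-dependent median was then -1.21 in dyw2 and -0.37 in nuwa plants, where 0 histone genes were called (edgeR, 12 at an unadjusted p under 0.05). The tapetum genes summed to 1.55, 1.69 and 1.58 CPM per kb in dyw2 homozygous plants, against 52.1, 1.36 and 21.6 in dyw2 heterozygous plants, which overlapped through replicate 2. They summed to 0.363, 0.363 and 20.5 CPM per kb in nuwa homozygous plants, against 57.7, 19.2 and 50.8 in nuwa heterozygous plants. Of the 8 tested, 7 were called lower in dyw2 and 0 in nuwa plants, and of the 8 secondary wall genes 4 and 0, against 32.8% and 0.636% of all genes. DESeq2 likewise called 0 of both lists in nuwa plants, and by edgeR 1 and 0 had an unadjusted p under 0.05. The meristem markers went both ways in dyw2 plants, with 2 of 7 tested called higher (CUC1 and KNAT1) and 1 lower: CLV1, with 7.20, 8.02 and 8.28 CPM in dyw2 homozygous plants, against 24.1, 32.0 and 20.3 in dyw2 heterozygous plants. Their mean log2 CPM was 1.18, 0.87 and 0.86 in dyw2 homozygous plants, against 1.13, -0.54 and 0.64 in dyw2 heterozygous plants. It was -2.32, -2.28 and 0.36 in nuwa homozygous plants, against 0.91, 0.35 and 1.22 in nuwa heterozygous plants, where all 7 had a negative log2 fold change (median -2.05; 0 called by edgeR, 4 at an unadjusted p under 0.05, 2 called by DESeq2). Of 8 listed rosette photosynthesis genes, 8 were lower in dyw2 homozygous plants. The floral means of dyw2 homozygous and heterozygous plants did not overlap, so the fit with this covariate cannot separate genotype from flower content there. Within a group the floral mean varied most in nuwa homozygous plants, through replicate 3, a library of disputed label. With the covariate, the dyw2 medians of the floral organ identity and tapetum genes turned from negative to positive, and that of the late pollen genes stayed negative. The part of tissue make-up in the histone values was not tested.

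**Figure D5:**
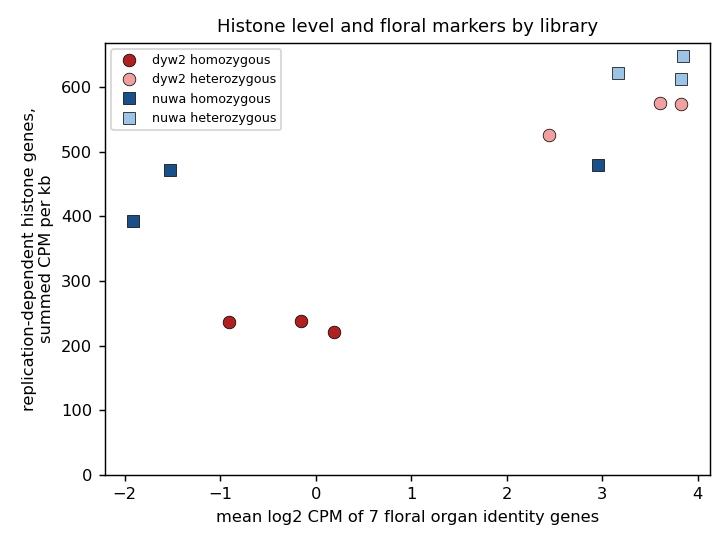
Summed level of the 27 replication-dependent histone genes (CPM per kb) against the mean log2 CPM of 7 floral organ identity genes, with 1 point per library. The dyw2 homozygous libraries (221 to 238 CPM per kb) and nuwa homozygous replicates 1 and 2 (471 and 393) all have floral means below 0.2, and their histone sums do not overlap.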

How the data were processed

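Total RNA was sequenced after depletion of ribosomal RNA with a stranded kit, per the labels' protocols. The deposited files hold raw counts, as whole numbers for each gene model. Per the file headers, the authors left out reads whose best and second-best alignments tied. These were 5.94% to 6.06% of mapped reads in dyw2 homozygous libraries and 2.54% to 3.39% elsewhere. TAIR10, TopHat2 and Bowtie2 are named in the submitters' processing notes. Names, positions and sequences came from the TAIR10.1 assembly and annotation of RefSeq, which matched 32835 of 33602 models.

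Counts were tested with edgeR 4.0.16 (R 4.3.3): quasi-likelihood F-test, TMM scaling, filterByExpr (minimum count 10, minimum total 15), 1 model of 4 groups with 8 residual degrees of freedom, and Benjamini-Hochberg adjustment over all 21213 genes tested. The SE given with a log2 fold change is its absolute value divided by the square root of the quasi-likelihood F. CPM were computed with TMM-scaled totals. Per-kb levels divide by the deposited length of the gene model. Motifs were sought on both strands of the 250 bases before the gene start. On simulated data a fit to the libraries of a single mutant recovered 62% of 2-fold and 98% of 4-fold changes in the dyw2 comparison (20139 genes, 17 of 177 calls false). In the nuwa comparison it recovered 27% and 85% (19753 genes, 10 of 122 false). Only a small share of genes was changed there, and none of low count. The rates therefore do not describe the model of 4 groups or the histone genes with few counts.

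The members, classes and gene lists were chosen with earlier results of these data known. Per-library values are given, for each histone family, for the member of highest mean CPM and for up to 2 called members of largest change per comparison; of each pathway list, for up to 3 called genes per direction with a mean log2 CPM (prior count 2) of at least 1. Other genes named were chosen after their values were seen. Alternatives were DESeq2 1.42.0, other scaling, other filters, nuclear genes only, own groups only, a replicate block, groups from the genotype field, left-out libraries and a floral covariate. Counts of calls under an alternative are to be read beside the main counts, as shares over all genes are not given for each. An offset by gene length, and a count of members with no 50-base window repeated in the genome, were added after the data were seen. Replicate pairs differed beyond sampling noise (chi-square per degree of freedom 18.2 to 131).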

Additional observations from a re-analysis of the deposited data

Results flagged for a closer look

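The 20 histone genes below, of 42 tested, were singled out because their change in dyw2 plants differed from their change in nuwa plants. This was by edgeR's test of the difference (adjusted p under 0.05). By that test 40.9% of all genes differed, so such a difference is common beyond the histone genes. The values are the dyw2 log2 fold change minus the nuwa one, each homozygous over heterozygous. Among H2B genes the difference was -1.94 for AT3G53650, -1.62 for AT2G37470, -0.84 for HTB11, -0.81 for HTB9, -0.76 for HTB1 and -0.48 for HTB4. Among H4 genes it was -1.38 for AT3G46320, -1.25 for AT5G59970, -1.19 for AT5G59690, -1.06 for HIS4 and -1.06 for AT3G45930. Among H3.1 genes it was -0.91 for AT1G09200, -0.90 for AT5G65360 and -0.78 for AT5G10390. Among H2A genes it was -1.56 for HTA2, -1.0 for HTA10 and -0.56 for RAT5, and for the H2A.W gene HTA6 it was -0.96. The linker gene HIS1-3 and the H2A.Z gene HTA9 differed upwards, by 5.17 and 0.56. No H3.3 gene and no other H2A.Z gene was called in this test (edgeR; 2 of the 6 tested replacement genes, HTA9 included, had an unadjusted p under 0.05).

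Of the pathway genes named in the results, 12 differed between the mutants by the same test, where 40.9% of all genes did. LIG1, SPT16, ASF1A, RBR1 and DPB were not called. All of these genes had been picked for a large change in dyw2 plants, which favours a difference in this test. Negative differences were -2.73 for CDC6A, -0.90 for FAS1, -0.81 for CYCA3;2, -0.73 for TK1A, -0.69 for CDT1A, -0.64 for NAP1;3 and -0.59 for DPA. Positive differences were 0.74 for E2FC, 0.94 for UBN1, 0.99 for RFC1, 1.04 for INO80 and 1.38 for POLD1. No explanation of these differences was tested.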

How the results depend on the processing

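Numbers of calls are given with the group medians of the log2 fold change as replication-dependent and replacement. In the dyw2 comparison, groups taken from the genotype field gave 0 genes called over the whole table and 0 histone genes (edgeR; 5346 and 28 at an unadjusted p under 0.05), with a replication-dependent median of -0.88. The medians were -1.21 and -0.35 with the floral covariate and -0.99 and -0.18 with the length offset, and -0.60 when all 14 core variants made up the second class. In the nuwa comparison, the 462 genes and 7 histone genes called became 1413 and 19 with DESeq2, 1411 and 14 without both libraries of disputed label, and 899 and 4 with the length offset. They became 6 and 0 with own groups only (31 histone genes at an unadjusted p under 0.05), 0 and 0 with the genotype field (3364 and 26), and 144 and 0 with the floral covariate (12 histone genes). Histone genes without repeated windows held 4 calls. The nuwa medians were -0.90 for replication-dependent genes with the genotype field, -0.37 and -0.35 with the floral covariate, and -0.32 for replacement genes with the length offset. In the difference of the effects, the genotype field gave 0 genes and 0 histone genes called (edgeR; 409 and 1 unadjusted) and medians of -0.0080 and 0.15, and it reversed AT1G09200 to 0.046, AT5G59970 to 0.18 and HTA6 to 0.18 (adjusted p 0.98 to 0.99, edgeR). The length offset gave -0.59 and 0.20. Between the heterozygous groups, 160 genes were called with DESeq2 and 0 with the genotype field, and the length offset gave medians of -0.078 and -0.11. The cause of these changes was not tested.

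The replicate block left 36 histone genes called in the dyw2 comparison, without H2AXA and AT3G09480, and 20 in the difference, 18 of them called without the block. In the nuwa comparison it left 240 genes and 0 histone genes (31 at an unadjusted p under 0.05, edgeR). Libraries of the same number correlated at -0.01 to 0.17 in their deviations, and those of different numbers at -0.24 to 0.18. With 3 libraries per group, this cannot tell whether libraries of the same number were grown or handled together. For the heterozygous groups the block could not be fitted.

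With 1 library left out, 35 to 38 histone genes were called in the dyw2, 0 to 14 in the nuwa and 15 to 21 in the difference comparison. Over all genes 11777 to 13860, 94 to 1739 and 7256 to 9541 were called. The nuwa count was 94 without nuwa homozygous replicate 2 and 1739 (495 higher, 1244 lower) without replicate 3, against 327 higher and 135 lower with all libraries. The replication-dependent median stayed between -1.44 and -1.30, between -0.61 and -0.47 and between -0.90 and -0.72, and the replacement median between -0.52 and -0.42, between -0.54 and -0.43 and between 0.01 and 0.11. Between the heterozygous groups 0 histone genes were called in each, 18 genes in all without dyw2 heterozygous replicate 2 and 115 without nuwa heterozygous replicate 2, with medians of -0.21 to -0.090 and -0.24 to -0.19. The lowest histone levels rest on few counts, and the dyw2 homozygous libraries are the shallowest.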
